A study of Homo sapiens with 6 samples.

Results

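Transcripts of the epidermal growth factor receptor (EGFR) system were examined in the cell line HK-2, which was derived from the proximal tubule of a human kidney and transformed with human papillomavirus 16. The 10 genes were chosen by symbol from the deposited count table and comprised the receptors EGFR, ERBB2 and ERBB3, the ligands AREG, EREG, HBEGF, TGFA and BTC, the ligand-releasing protease ADAM17 and the feedback inhibitor ERRFI1. All 10 were found among the 26899 genes of that table. Polyadenylated RNA was sequenced in 6 libraries, of which 3 were labelled shANXA2 (ANXA2 knockdown) and 3 shCtrl, numbered 1 to 3 in each group. The latter are called wild type in the titles, so the labels leave unsettled whether they carried a control hairpin. All cells were of the same transformed line, were grown in serum-containing medium, and received plasmid by lipid transfection. Whether the replicates came from separate cultures was not given, so p-values measure only the spread between these libraries, which may be technical.

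EGFR and its relatives are receptor tyrosine kinases at the cell surface. Their ligands are made as membrane-anchored precursors, and metalloproteases such as ADAM17 cut them free, so a cell that makes both ligand and receptor can stimulate itself. Bound receptors pair with one another, activate the RAS-ERK and PI3K-AKT cascades, and induce inhibitors such as ERRFI1 that bind the active kinase domains. In the kidney tubule this autocrine loop is known for its part in regrowth after injury and in fibrosis. These measurements are of RNA only, and released ligand or receptor activity was not measured.

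Library depth lay between 24231267 and 34561675 counted reads, with shCtrl replicate 1 the shallowest. ANXA2, the targeted gene, reached 1539 ± 21.3 CPM (read counts scaled to a common library size) with the label shANXA2 and 1598 ± 119 CPM with the label shCtrl (SD, n = 3), so its RNA did not bear out the labels, and every difference below is one between labels. Of 16 genes listed as markers of kidney epithelium and proximal tubule, 8 had a mean of at least 10 CPM and the other 8 a mean under 0.5 CPM. The former included PAX8, KRT8 and VIM, of which VIM is not specific to epithelium. The genes under 0.5 CPM included CDH1, HNF4A, the apical receptors LRP2 (1 read in all 6 libraries) and CUBN (34 reads) and the water channel AQP1 (4 reads). Of 8 leukocyte, 5 endothelial and 6 fibroblast markers, 3, 2 and 5 were listed. Their summed level spanned 1.16 to 4.22 CPM, 0 to 0.394 CPM and 29.5 to 38.0 CPM. Most of the fibroblast sum was LUM, with means of 22.7 CPM (shANXA2) and 25.5 CPM (shCtrl), and 3 fibroblast markers were under 0.5 CPM. LUM was named after its values were seen.

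The promoter sequences of EGFR and of its 3 most abundant ligands are shown here, as the receptor and the ligands that the levels below turn on. Each run is the 250 bases before the start of the gene in RefSeq on GRCh38.p14, given 5′ to 3′ on the strand of the gene, and capitals mark every match on either strand to the TATA box (spelled TATAAA), the cyclic AMP response element (spelled TGACGTCA), the AP-1 site (spelled TGANTCA) or the GC box (spelled GGGCGG, or CCGCCC where it lies on the other strand).
EGFR, plus strand of chr7:55018767-55019016: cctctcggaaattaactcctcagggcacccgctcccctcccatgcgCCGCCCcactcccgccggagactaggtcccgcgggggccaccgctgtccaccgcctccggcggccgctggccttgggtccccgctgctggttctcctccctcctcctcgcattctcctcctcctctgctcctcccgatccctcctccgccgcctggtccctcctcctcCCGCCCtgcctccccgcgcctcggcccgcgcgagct
AREG, plus strand of chr4:74444886-74445135: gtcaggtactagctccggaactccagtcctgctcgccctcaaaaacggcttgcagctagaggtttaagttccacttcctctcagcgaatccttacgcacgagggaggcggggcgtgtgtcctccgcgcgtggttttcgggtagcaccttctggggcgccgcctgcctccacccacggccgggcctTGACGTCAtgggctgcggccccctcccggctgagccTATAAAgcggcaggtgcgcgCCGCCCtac
EREG, plus strand of chr4:74364895-74365144: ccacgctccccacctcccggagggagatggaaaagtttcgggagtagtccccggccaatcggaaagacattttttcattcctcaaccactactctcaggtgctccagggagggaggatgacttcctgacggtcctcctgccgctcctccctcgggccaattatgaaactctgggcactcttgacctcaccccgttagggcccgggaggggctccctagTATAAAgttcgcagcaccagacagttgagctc
HBEGF, minus strand of chr5:140346604-140346853: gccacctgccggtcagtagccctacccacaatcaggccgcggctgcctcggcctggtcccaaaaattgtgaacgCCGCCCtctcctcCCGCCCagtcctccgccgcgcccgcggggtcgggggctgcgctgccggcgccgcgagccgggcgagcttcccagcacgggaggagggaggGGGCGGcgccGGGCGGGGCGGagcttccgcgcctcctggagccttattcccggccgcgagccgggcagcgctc

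AREG and EREG, which are neighbours on chromosome 4, both held TATAAA, at 29 and 32 bases before the start. Of 34943 RefSeq promoter windows of the same length, 10.8% held TATAAA. This share and those below count a match at any position on either strand. AREG also held TGACGTCA at 65 bases before the start, found in 1.63% of windows, and 1 match to GGGCGG at 9 bases. HBEGF and EGFR held no TATAAA in these windows and held 5 and 2 matches to GGGCGG, a motif present in 42.5% of windows, where 2 of the HBEGF matches overlap. RefSeq listed a further start of EGFR inside the gene (window chr7:55109589-55109838), which held 2 matches to TATAAA and 2 to TGANTCA. A match is a description of the letters and was not tested for function.

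By position, EREG (chromosome 4 from 74365145 to 74388749, plus strand, GENCODE release 44 on GRCh38), AREG (74445136 to 74455005, plus strand) and BTC (74744759 to 74794523, minus strand) stood in 1 stretch with the ligand gene EPGN, which spanned 486054 bases in all. EREG and AREG were separated by 56386 bases. The other members were on other chromosomes, with EGFR (ENSG00000146648.15) on chromosome 7 from 55019017 to 55211628, plus strand, and HBEGF (ENSG00000113070.7) on chromosome 5 from 140332843 to 140346603, minus strand.

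To ask how much of each transcript HK-2 cells carried, members were compared as deposited FPKM, which scales reads for transcript length. AREG, which encodes amphiregulin, was the most abundant member at 59.7 ± 6.4 FPKM (SD over all 6 libraries) and ranged from 54.04 to 71.15 FPKM. It exceeded HBEGF, which encodes heparin-binding EGF-like growth factor, in 6 of 6 libraries, and their ranges did not overlap. HBEGF followed at 34.5 ± 8.41 FPKM and EREG, which encodes epiregulin, at 26.1 ± 6.17 FPKM (SD, 6 libraries). HBEGF was above EREG in 5 of 6 libraries, and their ranges overlapped, so these neighbours in the order did not differ beyond their spread. Per length, the 3 ligands all lay above the receptor EGFR, which reached 14.98 ± 2.20 FPKM and spanned 11.66 to 17 FPKM.

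EGFR, the feedback inhibitor ERRFI1 (14.0 ± 2.17 FPKM) and the ligand TGFA (13.5 ± 0.517 FPKM; SD, 6 libraries) overlapped in range and could not be ordered. ADAM17, the main protease that releases AREG, EREG, HBEGF and TGFA, stood below them at 9.91 ± 0.854 FPKM. ERBB2, the receptor without a ligand of its own that pairs with the others, reached 7.44 ± 0.955 FPKM and was below ADAM17 in 6 of 6 libraries although their ranges overlapped. BTC, which encodes betacellulin, and ERBB3, the receptor with a nearly inactive kinase, were scarce at 1.00 ± 0.160 FPKM and 0.247 ± 0.0914 FPKM (SD, 6 libraries). The step from ERBB2 to BTC was 7.43-fold in mean FPKM, and the ranges on either side of it did not overlap.

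**Figure D1:**
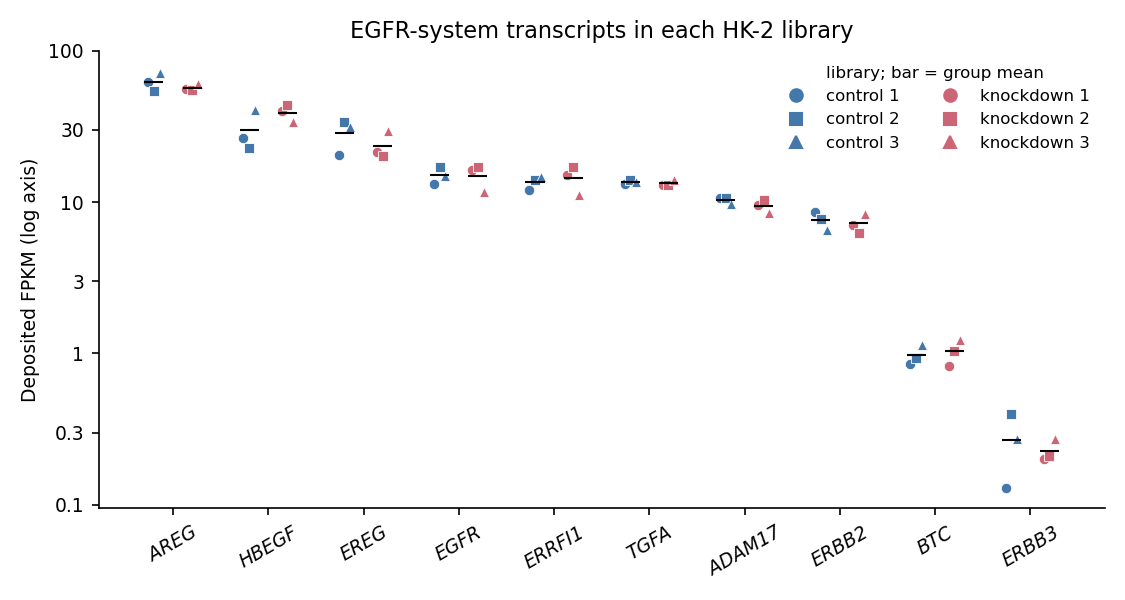
Deposited FPKM of the 10 transcripts on a log axis, ordered by mean level; each point is 1 library (marker shape gives the replicate number) and bars are group means of 3 libraries. AREG spans 54.04 to 71.15 FPKM and lies above every other gene, while ERBB3 spans 0.13 to 0.4 FPKM, and the groups overlap for every gene.

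The order depends on the scaling for length, which matters most for AREG. In reads, AREG held 0.428 to 0.819 times as many as EREG in a library, whereas per length it stood 1.59 to 3.05 times above EREG. AREG likewise held 0.335 to 0.542 times the reads of EGFR, whereas per length it stood 3.18 to 5.14 times above EGFR. Mean reads of EGFR were 188 CPM with the label shANXA2 and 186 CPM with shCtrl. EREG (116 and 139 CPM) and HBEGF (99.3 and 75.4 CPM) were lower. The 3 ligands therefore lay above EGFR per length only. EGFR was above ERBB2 in both, by 2.91 to 5.62 times in reads and 1.40 to 2.70 times per length. The lengths behind the deposited FPKM are not stated in the sources used here.

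Summed over the 5 ligands, FPKM was 134 ± 3.74 in the shANXA2-labelled libraries and 135 ± 19.5 in the shCtrl-labelled ones (SD, n = 3). AREG made up 41.5% to 50.6% of that sum in a library, HBEGF 18.2% to 32.8%, EREG 15.2% to 27.0%, TGFA 8.66% to 11.2% and BTC 0.633% to 0.890%. AREG was thus the largest ligand share in each of the 6 libraries. The second place changed between libraries, since EREG (27.0%) exceeded HBEGF (18.2%) in shCtrl replicate 2 and HBEGF exceeded EREG in the other 5.

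**Figure D2:**
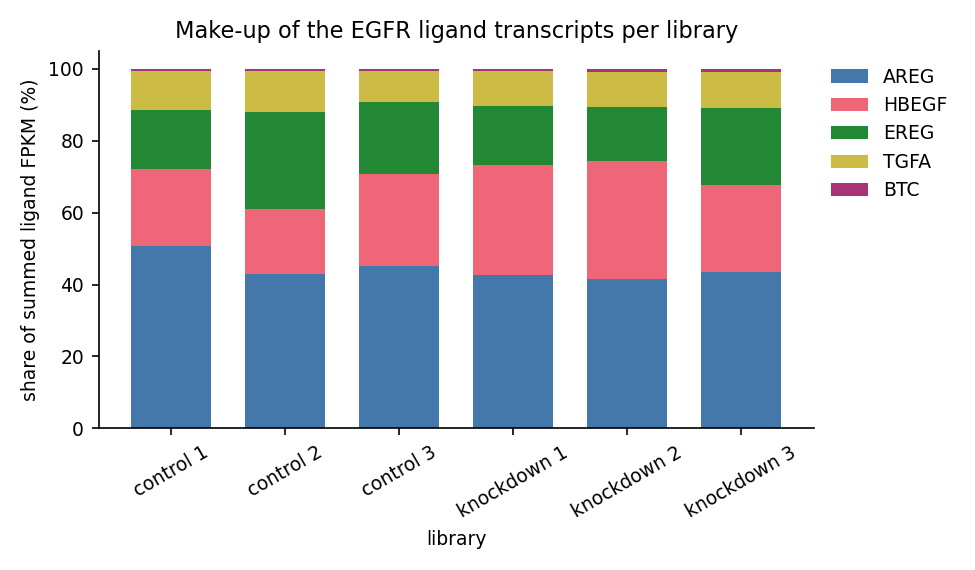
Share of the summed FPKM of the 5 ligands in each library (stacked bars, percent, from 0 to 100). AREG takes 41.5% to 50.6% of each bar, and the HBEGF segment runs from 18.2% in shCtrl replicate 2 to 32.8% in shANXA2 replicate 2.

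Of the ligands and receptors outside the 10 genes, NRG1 was well expressed. NRG1 encodes neuregulin 1, a ligand of ERBB3 and ERBB4, and spanned 12.11 to 14.42 FPKM, above the 0.13 to 0.4 FPKM of ERBB3. ERBB4 held 0 to 2 reads in a library. EGF, the founding ligand, was at 0.19 to 0.43 FPKM. EPGN, the neighbour of EREG, had 12 reads in shANXA2 replicate 1 and 0 reads in the other 5 libraries, where a count of 0 allows up to 0.0909 to 0.123 CPM (3 counts, counting error only).

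To compare the labels, a quasi-likelihood model was fitted with edgeR to 15299 genes that passed a low-count filter. None of the 10 members passed a Benjamini-Hochberg adjusted p of 0.05, against 0 of all tested genes (0%). At an unadjusted p under 0.05 the count was 0 of 10 members, against 8.18% of all tested genes, and DESeq2 and limma-voom likewise called 0 members after adjustment. At an unadjusted p under 0.05, limma-voom gave 0 members, DESeq2 gave 1 (HBEGF) and edgeR without the low-count filter gave 2 (HBEGF and EREG). Over all genes, these fits gave 1322 of 15299, 1285 of 26897 and 2078 of 26899 at that threshold. Omission of 1 library gave 1 member at that threshold without shCtrl replicate 1 (EREG) and 1 without shCtrl replicate 3 (HBEGF). Over all 15299 tested genes, those omissions gave 1933 and 1376 genes, in that order. After adjustment, DESeq2 called 0.119% of all genes it tested and edgeR without the low-count filter 0.613%, none of them a member. The groups overlapped for all 10 members, and 15.6% of tested genes had groups that did not overlap. With only 10 genes, a count of 0 does not set the members apart from that share. Estimates lay above 0 for 4 members and below 0 for 6, with a median log2 fold change of -0.04 against -0.0065 for all tested genes. Since RNA came from whole cultures, fewer cells of a kind and less RNA per cell cannot be told apart.

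HBEGF had the largest estimate of the 10 members. Its level was 102, 111 and 84.8 CPM in shANXA2 replicates 1, 2 and 3 and 66.9, 56.8 and 103 CPM in shCtrl replicates 1, 2 and 3. shCtrl replicates 1 and 2 were thus the lowest libraries, while shCtrl replicate 3 stood among the shANXA2-labelled libraries and made the groups overlap. The means were 99.3 ± 13.3 CPM and 75.4 ± 24.1 CPM (SD, n = 3), and the log2 fold change was 0.40 (SE 0.205; edgeR adjusted p 0.631). The 95% interval of the fold ran from 0.956 to 1.81, so the difference did not exceed the spread between replicates. Without shCtrl replicate 3 the log2 estimate was 0.68 (edgeR adjusted p 0.530) and without shCtrl replicate 2 it was 0.23 (adjusted p 0.912).

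EREG showed the largest negative estimate. The shANXA2-labelled libraries held 106, 99.3 and 143 CPM of EREG and the shCtrl-labelled ones 99.9, 163 and 153 CPM, in replicate order. One library of each group departed from its partners, shANXA2 replicate 3 being high and shCtrl replicate 1 low. Means were 116 ± 23.8 CPM and 139 ± 34.0 CPM (SD, n = 3), with a log2 fold change of -0.26, an SE of 0.198 and an edgeR adjusted p of 0.721. The interval of the fold was 0.614 to 1.14. Leaving out shCtrl replicate 1 gave a log2 estimate of -0.44, and leaving out shCtrl replicate 2 gave -0.12.

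Set against each other within a library (a comparison chosen after these values were seen), HBEGF stood at 0.969, 1.12 and 0.591 times the CPM of EREG in the shANXA2-labelled libraries. In the shCtrl-labelled ones the ratio was 0.670, 0.348 and 0.673. shANXA2 replicate 3 fell below shCtrl replicates 1 and 3, so the ratios overlapped. The exact two-sided permutation p of the log2 ratio was 0.3, where 3 against 3 libraries cannot give one below 0.1.

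AREG varied less than its neighbour EREG. It was at 74.2, 73.0 and 78.6 CPM in the shANXA2-labelled libraries and 81.8, 69.9 and 93.2 CPM in the shCtrl-labelled ones. The 3 shANXA2 values lay inside the shCtrl range. The log2 fold change was -0.12 with an SE of 0.119 and an edgeR adjusted p of 0.791, and the interval of the fold was 0.765 to 1.11. The log2 estimate of AREG was -0.22 without shCtrl replicate 2 and -0.011 without shCtrl replicate 3. Across the libraries AREG and EREG did not keep the same order, as shCtrl replicate 2 was the highest for EREG and the lowest for AREG.

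TGFA, which encodes transforming growth factor alpha, was the steadiest member. Its 6 libraries spanned only 66.3 to 70.8 CPM, a highest-to-lowest ratio of 1.07. The edgeR estimate was -0.018 with an interval of the fold from 0.856 to 1.14, and it was 0.0020 without shANXA2 replicate 1. Among the 8915 tested genes with a mean of at least 10 CPM, 1.40% had a smaller estimated biological coefficient of variation than TGFA, which stood at 0.106 against a median of 0.134. On the same scale, HBEGF (0.188) and EREG (0.185) had larger values than 89.5% and 88.4% of those genes. BTC had 62 to 106 reads in a library, and its log2 estimate of 0.10 came with a wide interval of the fold, 0.710 to 1.62, and was -0.038 without shANXA2 replicate 3.

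Among the receptors, EGFR did not differ detectably between the labels. It was at 204, 213 and 145 CPM in the shANXA2-labelled libraries and 164, 209 and 186 CPM in the shCtrl-labelled ones. shANXA2 replicate 3 was the lowest of the 6 libraries and shANXA2 replicate 2 the highest, so the spread lay within the group. The means were 188 ± 37.2 CPM and 186 ± 22.5 CPM (SD, n = 3), with a log2 fold change of 0.010, an SE of 0.154 and an edgeR adjusted p of 0.988. The interval of the fold was 0.792 to 1.28. The sign of this estimate turned in 9 of 16 alternative settings, and with 1 library left out it ran from -0.092 without shANXA2 replicate 2 to 0.17 without shANXA2 replicate 3.

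ERBB2 was at 43.0, 37.9 and 49.8 CPM in the shANXA2-labelled libraries and 52.0, 45.6 and 39.3 CPM in the shCtrl-labelled ones. Its log2 fold change was -0.066 (SE 0.143, edgeR adjusted p 0.908) and changed sign without shCtrl replicate 1 (0.040) or shANXA2 replicate 2 (0.024). ERBB2 and EGFR lay on opposite sides of their own means in 5 of the 6 libraries. ERBB3, with 26 to 101 reads in a library, gave a log2 estimate of -0.22 and an interval of the fold from 0.458 to 1.60. Its lowest and highest libraries, shCtrl replicates 1 and 2, were both labelled shCtrl, and without the latter the estimate was 0.18.

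**Figure D3:**
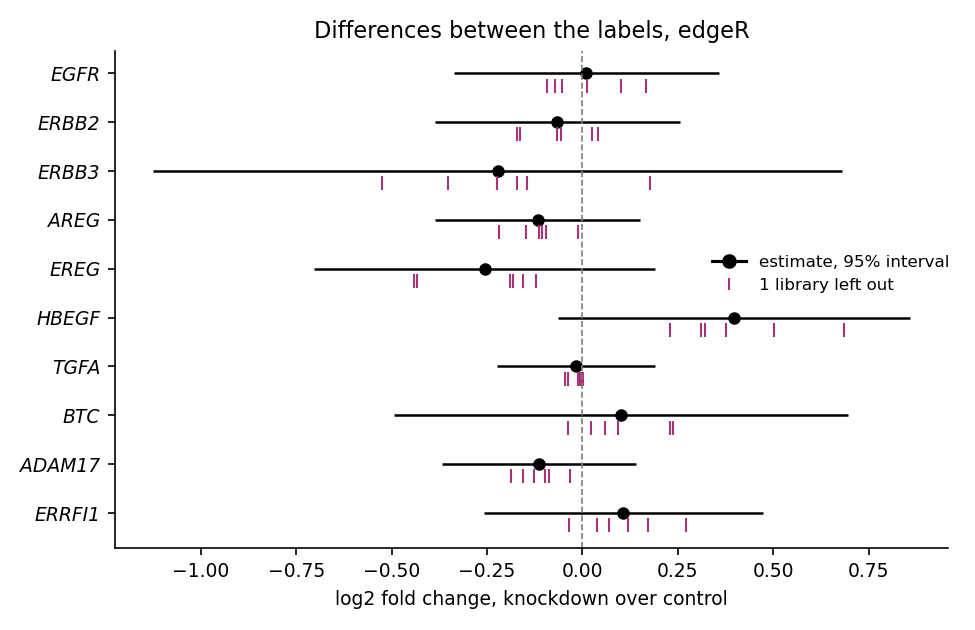
Log2 fold change of the shANXA2-labelled libraries over the shCtrl-labelled ones for each gene (points, edgeR) with 95% intervals (lines) and the estimates with 1 library left out (short ticks below). Every interval crosses 0; HBEGF lies farthest to the right at 0.40 and ERBB3 has the widest interval.

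ADAM17 was at 53.4, 57.6 and 46.4 CPM in the shANXA2-labelled libraries and 58.8, 58.2 and 53.5 CPM in the shCtrl-labelled ones, the groups overlapping by shANXA2 replicate 2. Its log2 fold change was -0.11 with an SE of 0.113 and an edgeR adjusted p of 0.780. The log2 estimate of ADAM17 was -0.032 without shANXA2 replicate 3 and -0.19 without shANXA2 replicate 2. ERRFI1, also known as MIG6, was at 67.3, 76.0 and 48.7 CPM against 53.3, 60.4 and 64.6 CPM. The shANXA2 group held both the highest and the lowest library of ERRFI1, as it did for EGFR. The log2 fold change of ERRFI1 was 0.11 (SE 0.162, edgeR adjusted p 0.862), and it was -0.035 without shANXA2 replicate 2. The exact permutation p of single members lay between 0.2 and 1.

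The members differed in how the libraries were ordered. EGFR and ERRFI1 had the same highest library, shANXA2 replicate 2, and the same lowest pair, shANXA2 replicate 3 and shCtrl replicate 1. EREG and BTC were instead above their means in shANXA2 replicate 3, by 0.20 and 0.31 on the log2 scale. shCtrl replicate 1, the shallowest library, was below the mean for 7 of these 10 genes. shANXA2 replicate 1, the deepest library, was below it for as many, among them ERBB2, AREG and ADAM17. The same count over all tested genes was not made, and the part of depth was not tested.

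**Figure D4:**
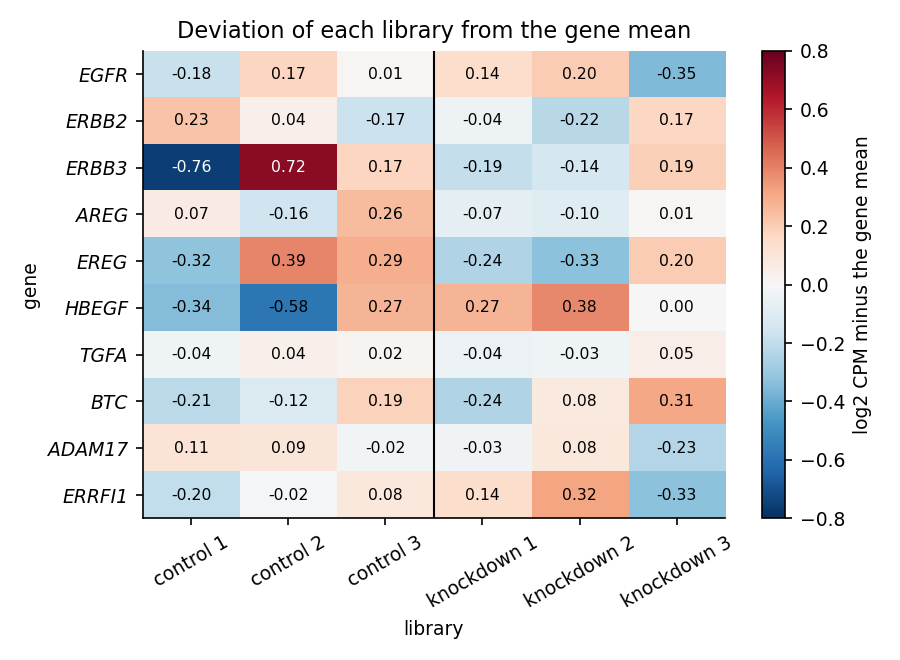
Log2 CPM of each library minus the mean of the gene over the 6 libraries, with libraries labelled shCtrl (control) left of the line and those labelled shANXA2 (knockdown) right of it; numbers in the cells are the plotted values. EGFR and ERRFI1 are lowest in shANXA2 replicate 3 (-0.35 and -0.33), TGFA stays within 0.051 of its mean, and no row separates the groups.

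The genes whose profile over the 6 libraries was most like that of 3 members were then listed, by the root mean square difference of centred log2 CPM among 8785 other genes of at least 10 CPM. For EGFR, whose own profile had a root mean square of 0.203, these were USP24 (0.034), PPFIA1 (0.046) and SEL1L3 (0.046). For AREG (0.136) they were INPP5A (0.048), KIFC1 (0.054) and TSPAN6 (0.054). For HBEGF (0.353) they were the chemokine gene CX3CL1 (0.059), ZSWIM4 (0.065) and the clock gene CRY2 (0.068). CX3CL1 reached 47.3 ± 8.62 CPM in the shANXA2-labelled libraries and 35.2 ± 9.46 CPM in the shCtrl-labelled ones (SD, n = 3; edgeR adjusted p 0.615). These nearest profiles were selected from 8785 genes over only 6 libraries and are given as a description.

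In order to place the members in their pathway, 6 lists holding 82 genes around the receptor were examined, and 0 of the 74 tested genes passed an edgeR adjusted p of 0.05. At an unadjusted p under 0.05, 4 tested genes were higher and 6 lower, against 3.86% and 4.32% of all tested genes. Of the ligand shedding list, 11 of 12 genes were tested and 1 was lower at that unadjusted threshold. This was ADAM10, the other major sheddase of EGFR ligands, at 50.3 CPM in the shANXA2-labelled libraries and 70.3 CPM in the shCtrl-labelled ones (log2 fold change -0.48, edgeR adjusted p 0.605), and its groups did not overlap. Without shCtrl replicate 2 the ADAM10 estimate was -0.23. ADAM9, a related protease, was at 11.6 and 9.25 CPM (log2 fold change 0.32, edgeR adjusted p 0.615), also without overlap. Groups did not overlap for 1 shedding gene in the higher and 2 in the lower direction, against 7.94% and 7.70% of all tested genes.

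All 22 genes of the adaptor and kinase cascade list were tested, with 1 higher and 3 lower at an unadjusted p under 0.05, against 3.86% higher and 4.32% lower of all tested genes. PIK3CB, a catalytic subunit of phosphoinositide 3-kinase, was at 19.1 CPM in the shANXA2-labelled libraries and 28.7 CPM in the shCtrl-labelled ones (log2 fold change -0.59, SE 0.148, edgeR adjusted p 0.599). PIK3CA, another catalytic subunit, was at 9.97 and 14.1 CPM (log2 fold change -0.50, edgeR adjusted p 0.605), and its log2 estimate was -0.32 without shCtrl replicate 2. The regulatory subunit gene PIK3R1 was at 7.07 and 10.7 CPM (log2 fold change -0.60, edgeR adjusted p 0.605), with 15.2 CPM in shCtrl replicate 2 against 8.77 and 8.12 CPM in shCtrl replicates 1 and 3, and its estimate was -0.26 without shCtrl replicate 2. The 1 higher gene was ARAF, which encodes a RAF kinase, at 151 and 124 CPM (log2 fold change 0.29, edgeR adjusted p 0.605). Groups did not overlap for 2 genes of the list in the higher direction (ARAF and HRAS) and 4 in the lower (PIK3CB, PIK3CA, PIK3R1 and NRAS), against 7.94% and 7.70% of all tested genes. PIK3R1, ARAF, HRAS and NRAS were named after their values were seen. The median of the list was -0.054.

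Of the 17 feedback and negative regulators, 16 were tested, and at an unadjusted p under 0.05 there was 1 higher and 0 lower, against 3.86% and 4.32% of all tested genes. DUSP5, a phosphatase of nuclear ERK, was at 50.5 and 37.9 CPM (log2 fold change 0.41, edgeR adjusted p 0.608) with overlapping groups, and its estimate was 0.27 without shANXA2 replicate 2. SOCS5 was at 7.75 and 9.41 CPM (log2 fold change -0.28, edgeR adjusted p 0.643) and was the 1 gene of the list whose groups did not overlap, against 15.6% of all tested genes. The median of the list was 0.013. In the list of endocytosis and sorting genes, 11 of 12 were tested, with 0 higher and 2 lower at that threshold. The lower ones were RAB11A, a GTPase of recycling endosomes, at 71.9 and 85.0 CPM, and SH3KBP1, an adaptor that binds CBL, at 73.9 and 87.4 CPM, each with a log2 fold change of -0.24 and an edgeR adjusted p of 0.605. Groups did not overlap for 1 gene of that list in the higher direction (TSG101, named after its values were seen) and for these 2 in the lower, against 7.94% and 7.70% of all tested genes.

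The 12 transcripts listed as responding to ERK signalling were all tested, and 10 had estimates above 0 and 2 below, against 49% above 0 for all tested genes. Their median log2 fold change was 0.18. The count holds for this choice of genes only. DUSP6 (-0.14), SPRY2 (-0.10), SPRY4 (0.23) and DUSP5 (0.41) were listed with the feedback and negative regulators, of which 9 lay above 0 and 7 below. DUSP6, SPRY2 and SPRY4 were named after their values were seen. Over the 14 alternative settings in which all 12 were tested, 8 to 11 estimates were above 0 and the median ran from 0.089 without shCtrl replicate 2 to 0.20 with upper-quartile scaling. EPHA2, a receptor of the ephrin system, was at 327 CPM in the shANXA2-labelled libraries and 253 CPM in the shCtrl-labelled ones (log2 fold change 0.37, SE 0.125, edgeR adjusted p 0.599). EMP1, which encodes a small membrane protein, was at 6.15 and 3.43 CPM (log2 fold change 0.84, edgeR adjusted p 0.599). The EPHA2 estimate was 0.24 without shCtrl replicate 2, and that of EMP1 was 0.56 without shANXA2 replicate 3. These were the 2 genes of the list that were higher at an unadjusted p under 0.05, against 3.86% of all tested genes, and the 2 whose groups did not overlap, against 7.94% in that direction. EGR1, a classical immediate early gene, was at 6.74 and 7.03 CPM, and CCND1, which encodes cyclin D1, at 179 and 173 CPM (both named after their values were seen). Of the list of further ligands and receptor, only EGF and NRG1 passed the filter. Their log2 fold changes were -0.52 and -0.010, with edgeR adjusted p of 0.709 and 0.981, and that of EGF was -0.30 without shCtrl replicate 2.

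**Figure D5:**
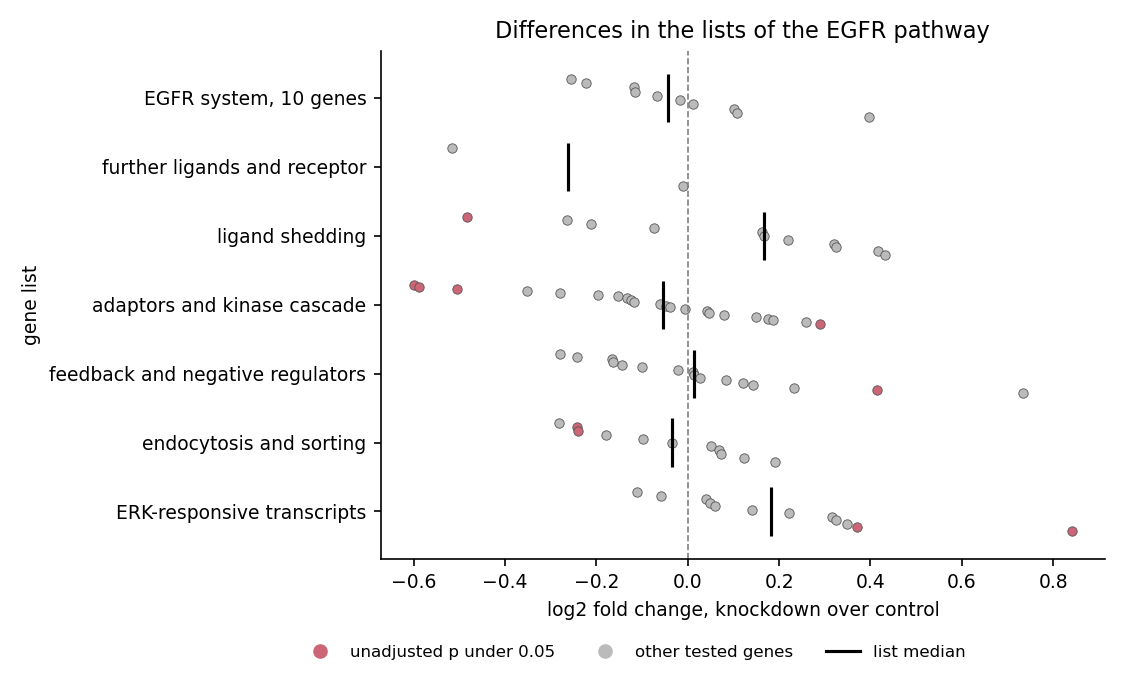
Log2 fold change (edgeR, knockdown over control) of every tested gene of the 10 members and of the 6 pathway lists; red points have an unadjusted p under 0.05 and black lines are list medians. No point passes an adjusted p of 0.05. The ERK-responsive list has 10 of 12 points right of 0, and the feedback list 9 of 16.

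Some members share exon bases with other genes, and the libraries were strand-specific but how strand was treated in counting is not stated in the sources used here. ADAM17 shares 1645 exon bases with IAH1 on the opposite strand (5764 reads over the 6 libraries, against 10067 of ADAM17), and ERBB2 shares 571 with MIEN1 (5977 reads, against 8146 of ERBB2) and 144 with PGAP3. The values of ADAM17 and ERBB2 are uncertain to that extent. ERBB3 shares 31 bases with ENSG00000257411, a gene on its own strand that held 24082 reads against 363 of ERBB3. The value of ERBB3 is therefore uncertain as well, whichever way strand was treated. EGFR shares 186 with EGFR-AS1, which held 3 reads against 34819.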

How the data were processed

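The authors deposited raw read counts per gene for 26899 genes, and FPKM values (reads scaled for transcript length and depth, rounded to 2 decimals) were deposited by the authors for 26803 genes. The submitters' processing notes name bcl2fastq, TopHat2, edgeR and GRCh38, without versions, and the counting program, annotation and handling of strand are not stated in the sources used here.

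Counts were tested with edgeR 4.0.16 (quasi-likelihood, TMM scaling, default low-count filter with a minimum of 10) in R 4.3.3, all 6 libraries in 1 model, two-sided, adjusted by Benjamini and Hochberg over 15299 genes. TMM factors spanned 0.987 to 1.02. Intervals are 95% intervals of the edgeR estimate. Levels between genes used FPKM, with no test. limma 3.58.1 and DESeq2 1.42.0 were alternatives, and the scripts were tested on simulated data. Replicates differed beyond sampling noise (chi-square per degree of freedom 9.64 to 49.7).

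Members and lists were chosen with earlier results of these data known. Named were the members, ANXA2, for each list the 2 tested genes of at least 1 CPM with the smallest p, the 3 most similar profiles of EGFR, AREG and HBEGF, EPGN and EGFR-AS1; kidney markers came from a fixed list, and genes named after their values were seen are marked so. Positions came from GENCODE release 44 and promoters from RefSeq.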

Additional observations from a re-analysis of the deposited data

How the results depend on the processing

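No member and no gene of the pathway lists passed an adjusted p of 0.05 under any of the 16 alternatives, among them other scalings, DESeq2, limma on counts or FPKM, a replicate block and the omission of each library. ADAM10 and PIK3CB came closest of the named pathway genes, with adjusted p from 0.0501 and 0.0509 up to 0.984 over these edgeR, DESeq2 and limma fits. Over all genes, edgeR gave 0 calls, against 165 without the low-count filter, 32 with DESeq2 and 0 to 4 with 1 library left out, the 4 coming without shANXA2 replicate 2. Of 158 member estimates under alternatives, 143 kept their sign and 15 changed it, all for estimates within 1 standard error of 0, and the cause was not tested. EGFR changed sign to -0.0153 with library size only, -0.00328 with limma-voom, -0.0162 and -0.0179 on log2(FPKM + 1) and log2(FPKM + 0.1), and -0.00292 with the replicate block. With 1 library left out, estimates spanned -0.0919 to 0.167 for EGFR, -0.170 to 0.0397 for ERBB2, -0.526 to 0.176 for ERBB3, -0.0463 to 0.00203 for TGFA, -0.0376 to 0.238 for BTC and -0.0347 to 0.271 for ERRFI1. HBEGF spanned 0.229 to 0.684 and EREG -0.442 to -0.122, both without a change of sign. ANXA2 stayed between -0.114 and -0.0188. Of the other genes, SEL1L3 changed sign to -0.0192 with library size only, -0.00189 with limma-voom and -0.0125 and -0.0134 on log2(FPKM + 1) and log2(FPKM + 0.1), and NRG1 to 0.00637 with upper-quartile scaling. With 1 library left out they spanned -0.101 to 0.140 and -0.0671 to 0.0516, PPFIA1 -0.0676 to 0.188, USP24 -0.131 to 0.108 and TSPAN6 -0.138 to 0.0450.

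Same-numbered replicates did not deviate together (correlations of -0.0616, 0.118 and -0.203 for numbers 1, 2 and 3 across genes), and the replicate block left 0 genes past the threshold. Differently numbered pairs spanned -0.226 to 0.217. The highest were shANXA2 replicate 3 with shCtrl replicate 1 (0.217) and shANXA2 replicate 2 with shCtrl replicate 3 (0.194). Depth limits ERBB3, BTC and EGF, whose reads per library lay at or under 106.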
